A study of Mus musculus with 35 samples.

Results

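A set of 10 genes of intrinsic antiviral defence, Mx1, Mx2, Rsad2, Cmpk2, Bst2, Ifitm1, Ifitm2, Ifitm3, Ifitm6 and Samhd1, was followed through myeloid-derived suppressor cells (MDSC) and tumors of mice with pancreatic cancer. They were taken by name, as the rows of the deposited count table whose Ensembl identifier carries 1 of these symbols, and all 10 were found among its 53379 gene rows. Pancreatic tumors were grown orthotopically from T110299, a mouse pancreatic tumor cell line, so every tumor comes from 1 line. The hosts were wild-type C57BL/6 mice, female and 6 to 12 weeks old. Treated mice received 50 µg poly(I:C) complexed with polyethylenimine (poly(I:C)-PEI) intravenously on days 18 and 20 after tumor induction. This synthetic analogue of viral double-stranded RNA was given to engage the cytosolic RNA sensor MDA5. The libraries labelled untreated came from tumor-bearing mice, which the protocol describes as given glucose as control and the study's results as left without treatment.

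From each compartment, spleen or tumor, CD11b+ cells were enriched on magnetic columns and sorted by flow cytometry into polymorphonuclear MDSC (PMN-MDSC; Ly6G+, low Ly6C) and monocytic MDSC (M-MDSC; Ly6G-, high Ly6C). Whole tumor of untreated mice was sequenced in addition, which is called bulk tumor. By the mouse numbers in the labels, the libraries of all groups come from 8 mice, 4 untreated and 4 treated. Because the columns of the table carry no such number, the comparisons between organs, cell types and bulk tumor, the interactions and the fit over all groups treat libraries as independent. There were 4 libraries in each of the 9 groups, except 3 of PMN-MDSC from spleens of treated mice and 3 of treated tumor M-MDSC, where library 1, with 10 counts, was left out and libraries 2 to 4 remain. The 30 MDSC libraries held 793070 to 4357105 gene counts and the 4 bulk tumor libraries 3771590 to 8886115. Levels are read counts scaled to an equal library total (CPM), after TMM scaling, which adjusts library totals for differences in composition. Levels of different genes were compared only per kilobase of exon, as FPKM. Each comparison was fitted across all genes that averaged 25 counts or more in its libraries, and a gene is called higher or lower at an adjusted p under 0.05 (edgeR's quasi-likelihood test, Benjamini-Hochberg). Values after ± are SE for a log2 difference and SD for a level, and libraries are given in the order of their numbers. Differences are on the log2 scale unless given as a fold, as the first group named minus the second, or treated minus untreated. P-values measure the spread between these libraries, and counting error is the least error of any level, since the reads carry no molecular identifiers.

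The labelled cell types were checked on marker genes. Summed over 8 neutrophil markers, splenic PMN-MDSC held 15515 to 34499 CPM without and 41717 to 46553 CPM with treatment, and splenic M-MDSC 1252 to 2205 and 574 to 2001 CPM. In the tumor the PMN-MDSC libraries held 1389 to 3850.4 CPM of neutrophil markers without and 3144 to 11459.9 CPM with treatment, beside 3179 to 3933 and 3062 to 5366 CPM of 6 macrophage markers. The label of tumor PMN-MDSC therefore covers libraries with both sets of transcripts. Summed over 6 monocyte markers, splenic M-MDSC held 3022 to 4024 CPM without and 2278 to 3827 CPM with treatment. Tumor M-MDSC held 3774 to 4304 and 2221 to 3306 CPM of these, beside 1590.3 to 2177 and 1753 to 7976 CPM of macrophage markers. The label of tumor M-MDSC thus covers libraries with monocyte and macrophage transcripts. Bulk tumor held 3540.4 to 5705 CPM of 4 epithelial markers and 10.2 to 15.1 CPM of neutrophil markers, with Ly6g and Retnlg at 0. In any of these sorted or bulk samples, fewer cells of a type and less RNA per cell cannot be told apart.

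Restriction factors are proteins that block single steps of a viral life cycle inside the cell. Most are made in response to type I interferon, which signals through the receptor IFNAR and the kinases JAK1 and TYK2 to transcription factors that bind the interferon-stimulated response element (ISRE) in promoters. The gamma-activated site (GAS) is another element of interferon-responsive promoters. Mx1 and Mx2 are dynamin-like GTPases that trap viral nucleocapsids. Rsad2 encodes viperin, a radical SAM enzyme that makes a chain-terminating nucleotide from CTP, and its neighbour Cmpk2 encodes a mitochondrial kinase of nucleoside monophosphates. Bst2 encodes tetherin, which holds budding virions at the cell surface. The IFITM proteins sit in plasma and endosomal membranes and hinder fusion of viruses with the cell. Samhd1 encodes a triphosphohydrolase that lowers the pool of deoxynucleotides needed for reverse transcription, and it is abundant in resting myeloid cells. C57BL/6 mice, as most inbred strains, carry defective alleles of Mx1 and Mx2, so their counts here stand for transcripts and not for active protein.

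Positions are those of GENCODE M21 on GRCm38. Of the members, 4 lie in 1 cluster on chromosome 7, Ifitm2 at chr7:140954837-140955987 (minus strand), Ifitm1 at chr7:140967221-140969825 (plus), Ifitm3 at chr7:141009586-141010770 (minus) and Ifitm6 at chr7:141015699-141017924 (minus). Rsad2 at chr12:26442746-26456452 (minus) and Cmpk2 at chr12:26469204-26479837 (plus) are transcribed away from each other from starts 12752 bases apart. Mx1 at chr16:97447035-97462907 (minus) and Mx2 at chr16:97535308-97560900 (plus, annotated as a polymorphic pseudogene) are neighbours as well. Bst2 lies at chr8:71534255-71537456 (minus) and Samhd1 at chr2:157097533-157135265 (minus). The level of Ifitm2 is uncertain, because 268 of its 655 exon bases (40.9%) are shared on the same strand with the gene model Gm45717, and 48.51% of its stretches of 50 bases occur in another transcript. The authors' counting gave Gm45717 0 counts over all libraries and Ifitm2 7322. Of the stretches of Ifitm3 and Ifitm1, 10.02% and 5.02% occur elsewhere, and under 5% of those of the other members.

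RefSeq promoter windows on GRCm38.p6, from 250 bases before to 50 bases after the transcription start, were at hand for 8 members, without Mx1 and Mx2. The core letters of the ISRE, GAAANNGAAA, were searched on both strands and occurred in Rsad2, Bst2, Ifitm2 and Ifitm3, that is in 4 of 8 windows, against 3.44% of 32851 promoters of all genes. The core of the GAS, TTCNNNGAA, which reads alike on both strands, occurred in Bst2, Ifitm3, Ifitm6 and Samhd1, against 8.30% of all promoters. Neither was found in the windows of Cmpk2 and Ifitm1. The sites below are shown for members that differ in their response to treatment, and a link between site and response was not tested. Each line gives a stretch of 30 bases, 5′ to 3′ on the strand of the gene, with the matched letters in capitals.
ISRE core in Rsad2 (chr12:26456553-26456582, minus strand): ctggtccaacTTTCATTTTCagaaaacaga
ISRE core in Bst2 (chr8:71537577-71537606, minus strand): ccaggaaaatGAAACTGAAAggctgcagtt
ISRE core in Ifitm3 (chr7:141010723-141010752, minus strand): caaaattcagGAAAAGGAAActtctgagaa
ISRE core in Ifitm2 (chr7:140955988-140956017, minus strand): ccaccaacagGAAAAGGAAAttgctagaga
GAS core in Ifitm6 (chr7:141016883-141016912, minus strand): ccatatgaacTTCCTTGAAacaagagcttc
GAS core in Samhd1 (chr2:157135312-157135341, minus strand): acaccaccctTTCGGAGAAacacaagggcg
The matched letters begin 120 bases before the start in Rsad2, on the opposite strand, 124 before it in Bst2, 46 before it in Ifitm2, 10 before it in Ifitm6, 235 before it in Samhd1 and 2 bases after it in Ifitm3. These starts are those of RefSeq. The start of the GENCODE gene model lies 1032 bases upstream of the RefSeq start in Ifitm6, 855 in Ifitm1 and 169 in Samhd1, so that the site shown for Ifitm6 lies inside its gene model, and the starts differ by at most 26 bases in the other 5. Bst2 and Ifitm3 each hold another ISRE core and a GAS core nearby. In Bst2 the other ISRE core overlaps both the one shown and the GAS core. In Ifitm3 it overlaps the GAS core, and neither overlaps the one shown. A match describes letters only, and no match says nothing of the factors bound.

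**Figure D1:**
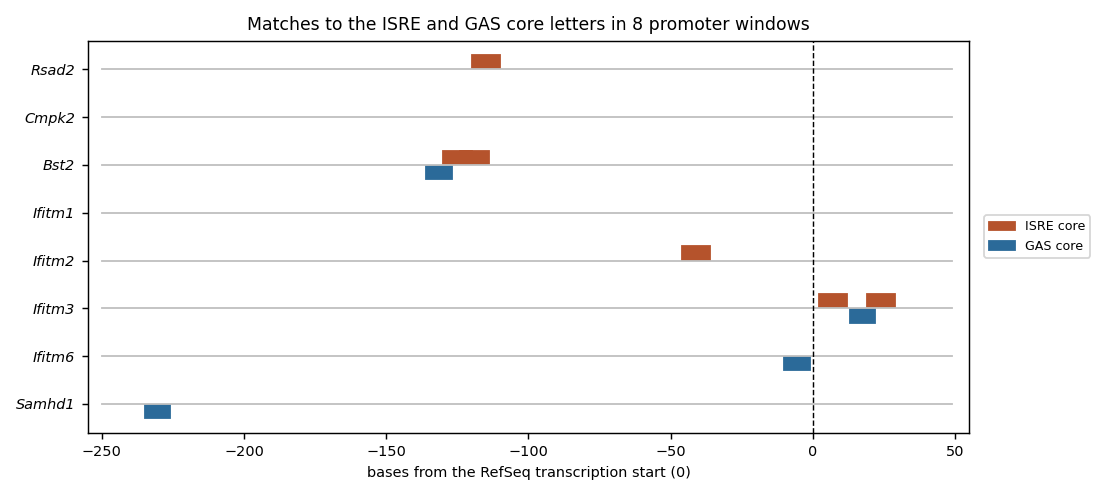
Positions of the ISRE core (above the line) and the GAS core (below the line) in the promoter windows of 8 members, as bases from the RefSeq transcription start at 0. The matches of Bst2 overlap around 130 bases before the start, those of Ifitm3 lie just after it, and the lines of Cmpk2 and Ifitm1 are empty.

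Across the 8 MDSC groups, the range of mean levels differed widely between members. The highest group mean exceeded the lowest 105-fold for Ifitm6, 101-fold for Rsad2, 83.0-fold for Ifitm1 and 62.3-fold for Cmpk2. The ratio was 32.4 for Mx1, 27.2 for Mx2, 18.9 for Bst2, 8.81 for Ifitm3, 5.78 for Ifitm2 and 3.77 for Samhd1. The lowest group mean of Ifitm1 rests on 6 to 14 counts a library and that of Mx2 on 4 to 18. Samhd1 was the steadiest of the members, and it was detected at 528 CPM or more in each of the 30 MDSC libraries. Within groups, the highest library exceeded the lowest by a median of 1.60 times for Ifitm3 and 2.92 times for Mx2. The widest spread was that of Ifitm6 in treated tumor PMN-MDSC, 21.6 to 302 CPM.

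**Figure D2:**
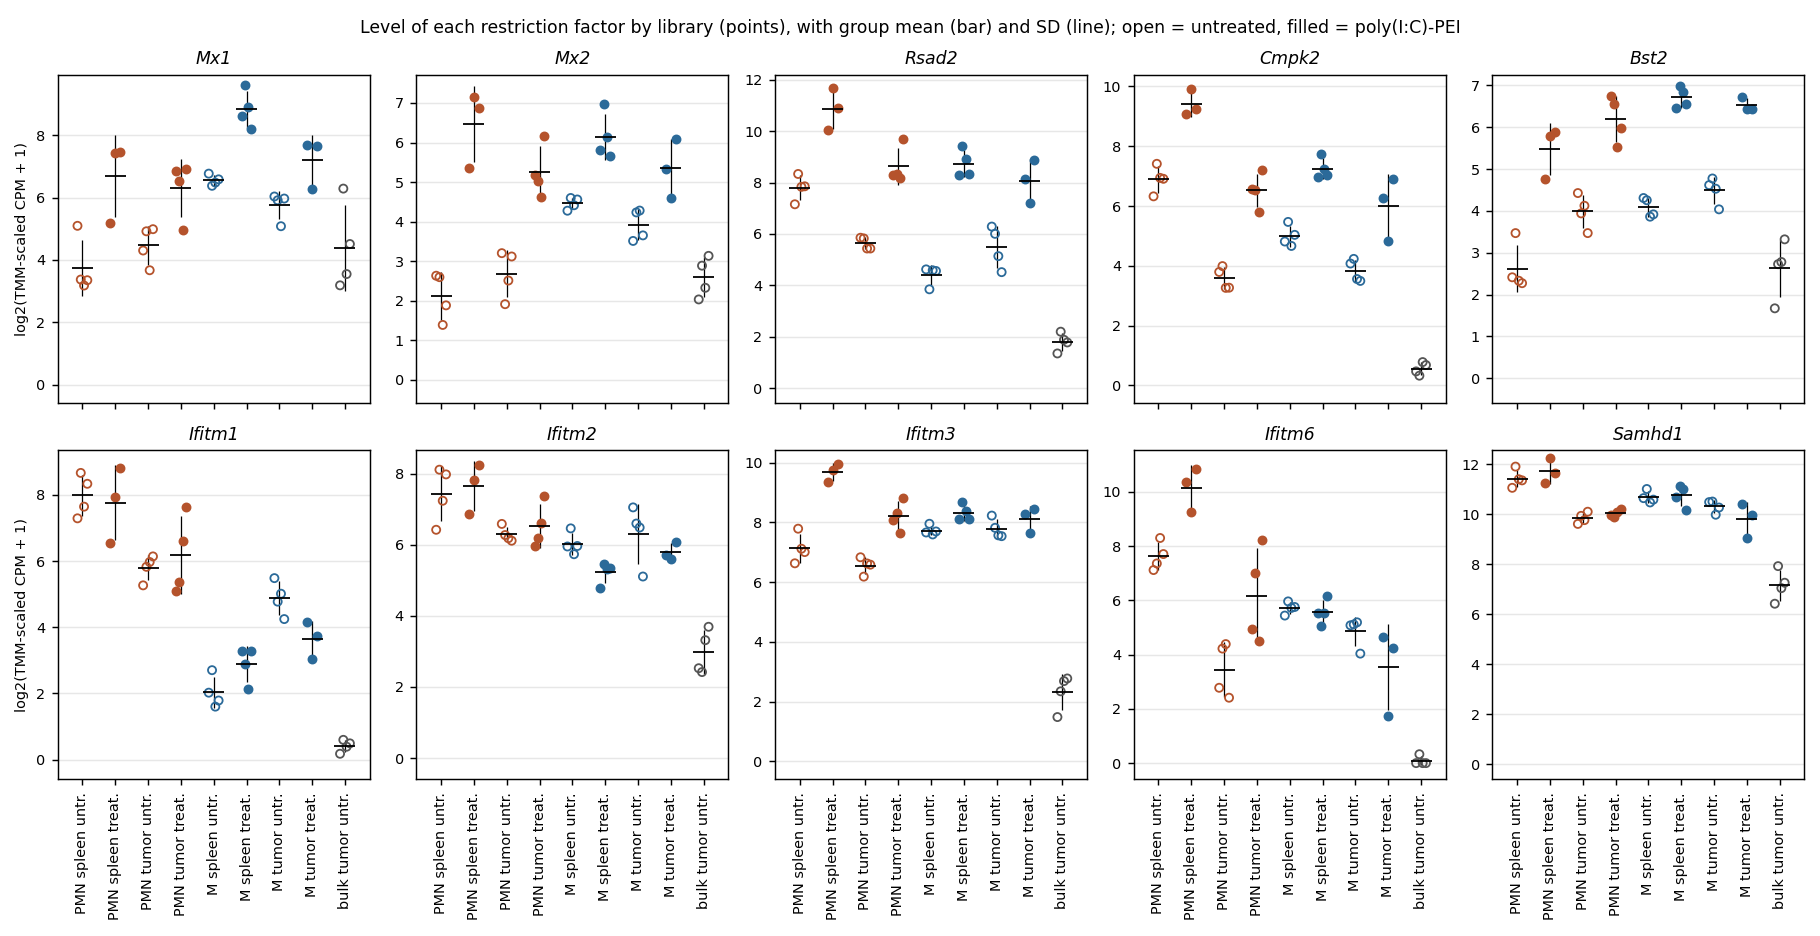
Level of each member in every library (points) as log2(TMM-scaled CPM + 1), with the group mean (bar) and SD (line), for the 8 MDSC groups and bulk tumor. Open points are untreated and filled points treated libraries. Treated points lie above the untreated ones for Rsad2, Cmpk2 and Bst2 in each cell type and compartment, while those of Samhd1 overlap throughout.

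Per kilobase of exon, Ifitm3 had the highest mean of the members in all 4 M-MDSC groups and in both tumor PMN-MDSC groups, from 139 ± 25.1 FPKM in untreated tumor PMN-MDSC to 477 ± 92.6 FPKM in treated splenic M-MDSC. In untreated tumor PMN-MDSC Ifitm2 followed within 1 SD, at 119 ± 18.2 FPKM. The ranks of Ifitm2 are uncertain, because of its shared exon bases given above. Splenic PMN-MDSC had another order. Without treatment Samhd1 (310.4 ± 79.5 FPKM), Ifitm2 (290.0 ± 136), Ifitm1 (247 ± 104), Ifitm6 (227 ± 86.0) and Ifitm3 (215 ± 77.1) were within 1 SD of their neighbours in this order. With treatment Ifitm6 (1387 ± 685 FPKM) and Ifitm3 (1227 ± 246 FPKM) stood first, followed by Rsad2 (482 ± 257 FPKM). The FPKM of Mx2 was the lowest of the 10 in the 4 PMN-MDSC groups, at 1.61 ± 0.710 in untreated and 11.1 ± 5.73 in treated tumor. Ifitm1, at rank 3 of the 10 in untreated and rank 6 in treated splenic PMN-MDSC, was the lowest in splenic M-MDSC, at 2.98 ± 1.42 FPKM without and 6.20 ± 2.31 FPKM with treatment.

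The first comparison asked which members answered poly(I:C)-PEI in each cell type and compartment. Rsad2, Cmpk2 and Bst2 were higher after treatment in all 4 comparisons, Mx1, Mx2 and Ifitm3 in 3, and Ifitm6 in splenic PMN-MDSC. Ifitm1 and Samhd1 were called in none, and Ifitm2 was lower in splenic M-MDSC. In splenic PMN-MDSC 7 of 10 tested members were higher, where 6.1% of all tested genes were. In tumor PMN-MDSC 6 of 10 were higher, beside 2.29% of all genes. In splenic M-MDSC 6 of 9 were higher and 1 lower, beside 10.7% and 8.96% of all genes, and Ifitm1 was too low to be tested. In tumor M-MDSC 3 of 10 were higher, beside 1.82% of all genes. The median log2 difference of the tested members was 2.62, 2.14, 1.78 and 0.94 in this order, and that of all tested genes 0.014, 0.0063, −0.012 and −0.00054. The members, and the gene lists read below, were chosen with earlier results of these data known. Their counts beside the shares of all genes are therefore descriptions and no test.

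**Figure D3:**
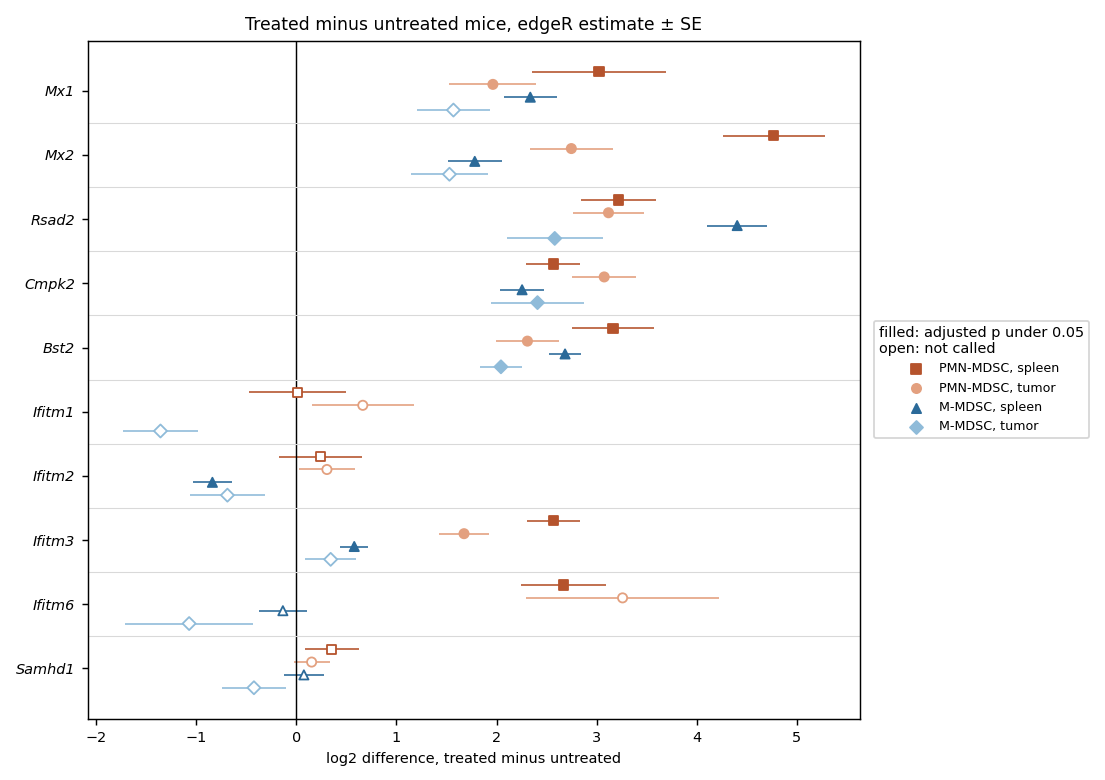
Log2 difference of treated minus untreated libraries for each member (points) with its SE (lines) in the 4 combinations of cell type and compartment. Filled points passed an adjusted p of 0.05. The points of Rsad2, Cmpk2 and Bst2 are filled in all 4 comparisons, and those of Samhd1 and Ifitm1 are open.

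Marker transcripts of other cells moved with treatment in some of these libraries. Of 12 marker lists, the sums of treated and untreated libraries were apart for 6 in splenic PMN-MDSC, 2 in splenic M-MDSC, 2 in tumor M-MDSC and 0 in tumor PMN-MDSC. In splenic PMN-MDSC the macrophage marker sum was 389 to 1158 CPM without and 53.4 to 131 CPM with treatment, the erythroid sum 61.7 to 157 and 0 to 5.25 CPM, and the neutrophil sum was higher in each treated library than in any untreated one, as given above. In the same cells the T cell sum was 12.9 to 20.3 CPM without and 1.53 to 5.96 CPM with treatment, the dendritic cell sum 12.1 to 31.7 and 0 to 1.79 CPM, and the endothelial sum 29.8 to 73.9 and 13.1 to 24.4 CPM. In splenic M-MDSC the endothelial sum was 19.6 to 28.4 CPM without and 110.3 to 269 CPM with treatment, and the erythroid sum 18.1 to 47.6 and 0.608 to 2.67 CPM. In tumor M-MDSC the monocyte sum was 3774 to 4304 CPM without and 2221 to 3306 CPM with treatment, the endothelial sum 20.6 to 41.5 and 70.3 to 143 CPM, and the macrophage sum, which overlapped, 1590.3 to 2177 and 1753 to 7976 CPM. Their part in the results of the members was not tested.

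Rsad2 (viperin) rose in all 4 comparisons. In splenic PMN-MDSC it was at 142, 322, 227 and 231 CPM without and 1072, 3283 and 1920.1 CPM with treatment. All treated libraries exceeded all untreated ones, and Rsad2 rose 9.30-fold (3.22 ± 0.37, adjusted p = 0.00287). In splenic M-MDSC it was at 23.6, 13.4, 23 and 22.6 CPM without and 311, 687, 486 and 322 CPM with treatment. This was the largest of its 4 changes, 21.2-fold from a low start (4.40 ± 0.30, adjusted p = 2.67e-05). In tumor PMN-MDSC the 4 untreated libraries lay at 56.8, 55.8, 42.2 and 42.2 CPM and the 4 treated ones at 314, 322, 292 and 823 CPM (3.12 ± 0.35, adjusted p = 0.00109). Treated library 4 stood apart at 823 CPM, and it also held the highest neutrophil marker sum of its group, 11460 CPM. In tumor M-MDSC the values were 77.2, 63.3, 34.2 and 21.8 CPM without and 283, 149 and 467 CPM with treatment (2.58 ± 0.48, adjusted p = 0.0307). These groups did not overlap, but the call was lost when any of the 4 untreated libraries or treated library 4 was left out (adjusted p 0.0624 to 0.0971).

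Cmpk2, which shares the locus with Rsad2, moved in the same direction in each comparison. It rose 5.92-fold in splenic PMN-MDSC, from 79.1, 169, 122 and 119 CPM to 539, 965 and 599 CPM (2.57 ± 0.27, adjusted p = 0.00213). In splenic M-MDSC it was at 27.1, 43.3, 24.4 and 31.8 CPM without and 126, 213, 149.5 and 129 CPM with treatment (2.25 ± 0.22, adjusted p = 0.000175). In tumor PMN-MDSC it was at 12.9, 14.9, 8.60 and 8.64 CPM without and 92.8, 90.9, 55.1 and 146 CPM with treatment, an 8.43-fold rise (3.08 ± 0.32, adjusted p = 0.000632). No treated library overlapped the untreated ones in any of the 3. In tumor M-MDSC it was at 15.9, 17.8, 10.8 and 10.3 CPM without and 76.2, 27.1 and 118 CPM with treatment (2.41 ± 0.46, adjusted p = 0.0308). This call was lost under the same omissions as that of Rsad2, any untreated library or treated library 4 (adjusted p 0.0733 to 0.117).

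The ratio between these neighbours was not fixed. Per kilobase of exon, Rsad2 exceeded Cmpk2 in 7 of the 8 MDSC groups, with a log2 ratio of 0.85 ± 0.048 (SD) in untreated splenic PMN-MDSC and of 2.10 ± 0.18 in untreated tumor PMN-MDSC. In untreated splenic M-MDSC the log2 ratio was −0.68 ± 0.74, with Cmpk2 above Rsad2 in each of the 4 libraries, and after treatment it was 1.44 ± 0.22. The ratio of Mx1 to Mx2 per length also varied. Its log2 was 2.08 ± 0.30 in untreated and 2.64 ± 0.11 in treated splenic M-MDSC, and 1.85 ± 0.78 in untreated and 0.16 ± 0.40 in treated splenic PMN-MDSC. Ifitm3 and Ifitm2 were near equal per length in untreated splenic PMN-MDSC (log2 ratio −0.35 ± 0.50) and far apart after treatment (1.99 ± 0.41), with the uncertainty of Ifitm2 given above. These ratios are descriptions and were not tested.

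**Figure D4:**
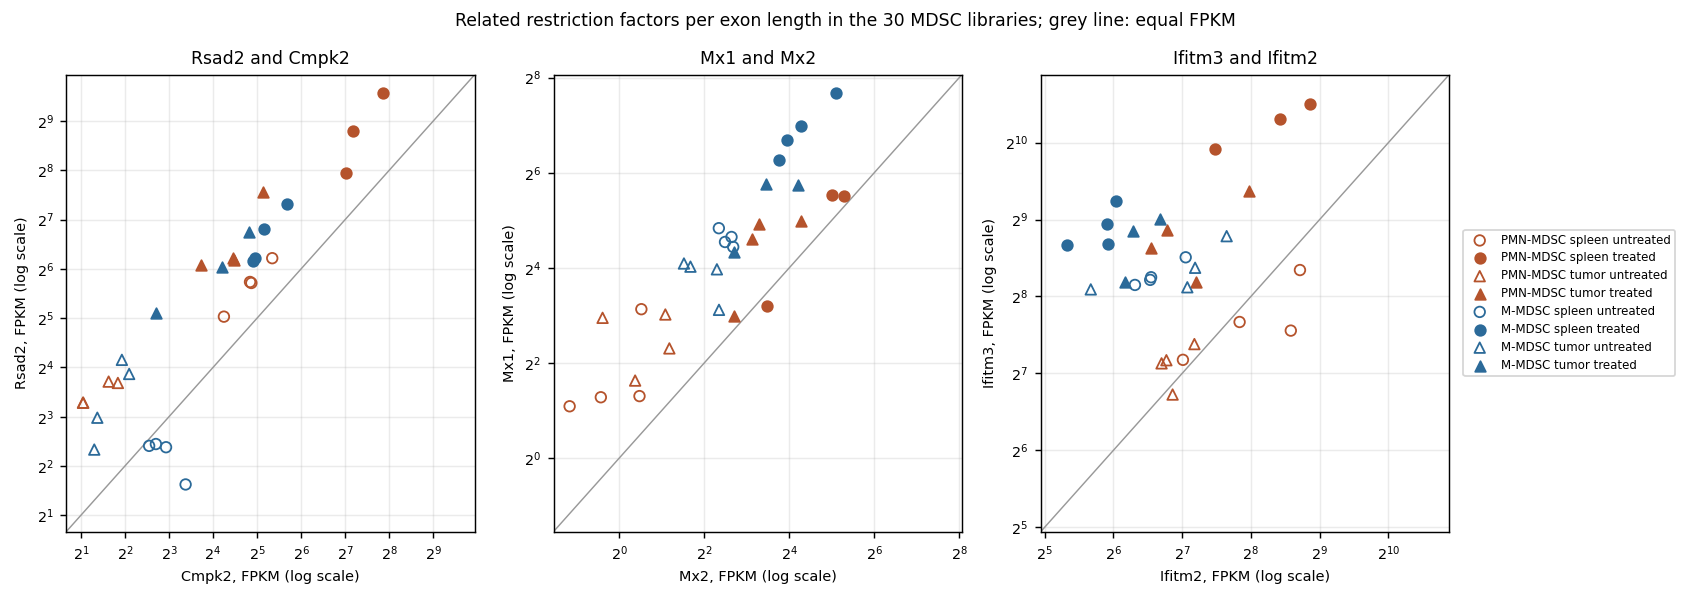
Levels per kilobase of exon (FPKM, log axes) of Rsad2 against Cmpk2, Mx1 against Mx2 and Ifitm3 against Ifitm2 in the 30 MDSC libraries, with a grey line at equal levels. Circles are spleen and triangles tumor, filled symbols are treated, and PMN-MDSC and M-MDSC have different colours. Untreated splenic M-MDSC lie below the line in the first panel, and treated splenic PMN-MDSC lie near it in the second.

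Bst2 (tetherin) rose in each cell type and compartment. In splenic PMN-MDSC it was at 4.33, 10.1, 4.03 and 3.83 CPM without and 26.2, 54.2 and 58.5 CPM with treatment. Library 2 stood above the other untreated ones, but the groups did not overlap, and the change was 8.96-fold (3.16 ± 0.41, adjusted p = 0.00368). In splenic M-MDSC it was at 18.8, 18.1, 13.5 and 14.1 CPM without and 87.1, 126, 114 and 92.6 CPM with treatment (2.68 ± 0.16, adjusted p = 2.19e-05). Tumor PMN-MDSC held 20.5, 14.4, 16.4 and 10.1 CPM without and 106, 92.9, 45.5 and 62.1 CPM with treatment (2.31 ± 0.31, adjusted p = 0.00236). Tumor M-MDSC held 23.5, 26.4, 22.1 and 15.4 CPM without and 104, 86.0 and 85.8 CPM with treatment (2.04 ± 0.21, adjusted p = 0.00340). The groups were separate in each case. Of the 3 members called in tumor M-MDSC, Bst2 kept its call whichever library was left out.

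The dynamin-like GTPase transcripts Mx1 and Mx2 rose in both splenic cell types and in tumor PMN-MDSC. Mx1 in splenic M-MDSC was at 108, 82.2, 88.3 and 95.0 CPM without and 388, 779, 482 and 292 CPM with treatment (2.34 ± 0.26, adjusted p = 0.000438, 5.05-fold). Its treated level there was the highest of all groups. In splenic PMN-MDSC Mx1 was at 33.2, 9.36, 8.07 and 9.20 CPM without and 35.0, 172 and 175 CPM with treatment (3.02 ± 0.67, adjusted p = 0.0245). Untreated library 1, at 33.2 CPM, came close to treated library 1, and that untreated library also had the highest macrophage sum (1158 CPM) and B cell sum (86.3 CPM) and the lowest neutrophil sum (15515 CPM) of its group. The call was lost without untreated library 3 or 4 or treated library 2 or 3 (adjusted p 0.0581 to 0.0864). In tumor PMN-MDSC Mx1 was at 18.7, 29.3, 11.7 and 30.7 CPM without and 115, 91.9, 29.9 and 119 CPM with treatment (1.96 ± 0.43, adjusted p = 0.0371). Treated library 3 fell among the untreated ones, and the call was lost in each fit that left out 1 library (adjusted p 0.0686 to 0.130) except the one without that library.

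Mx2 in splenic PMN-MDSC was at 5.19, 5.04, 1.61 and 2.68 CPM without and 40.2, 141 and 115 CPM with treatment. The untreated values rest on 4 to 18 counts a library. These groups were far apart, and the change of 27.3-fold (4.77 ± 0.51, adjusted p = 0.00234) was the largest of any member in any of the 4 comparisons. In splenic M-MDSC Mx2 was at 18.4, 23.2, 20.3 and 22.6 CPM without and 55.5, 125, 69.6 and 49.1 CPM with treatment (1.78 ± 0.27, adjusted p = 0.00195). In tumor PMN-MDSC it was at 8.20, 2.76, 4.69 and 7.68 CPM without and 35.3, 31.7, 23.4 and 70.4 CPM with treatment (2.75 ± 0.41, adjusted p = 0.00409). In tumor M-MDSC neither gene passed edgeR's test, whereas DESeq2 and the fit without a filter on low counts called both higher. Mx1 was at 64.6, 59.3, 32.9 and 61.7 CPM without and 206, 76.9 and 202 CPM with treatment (1.57 ± 0.37, adjusted p = 0.0560), and Mx2 at 10.4, 17.8, 18.4 and 11.6 CPM without and 39.3, 23.4 and 67.1 CPM with treatment (1.53 ± 0.38, adjusted p = 0.0623). For both, each treated library lay above each untreated one, and the lowest treated value was that of library 3. Without that library both were called, with an adjusted p of 0.00622 for Mx1 and 0.0172 for Mx2. The same library held the highest macrophage marker sum of its group (7976 CPM) and the highest T cell sum, 124 CPM against 7.15 and 20.1 CPM in the other two. It had the lowest level of the group for every member except Bst2, and the part of these markers was not tested.

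Of the IFITM genes, Ifitm3 responded in most groups. In splenic PMN-MDSC it was at 98.1, 220.2, 138 and 128 CPM without and 654, 856 and 985 CPM with treatment, a 5.94-fold rise (2.57 ± 0.26, adjusted p = 0.00207). In tumor PMN-MDSC it was at 113, 71.8, 97.8 and 95.0 CPM without and 269, 316, 197 and 449.6 CPM with treatment (1.67 ± 0.25, adjusted p = 0.00386). The groups were separate in both. In splenic M-MDSC the change was small, from 202, 247, 193 and 206 CPM to 275, 409, 332 and 277 CPM (0.58 ± 0.14, adjusted p = 0.0190), and the call was lost without untreated library 1, 3 or 4 (adjusted p 0.0618 to 0.0762) and in a fit over all 8 MDSC groups. In tumor M-MDSC the groups overlapped, at 299, 225, 189 and 185 CPM without and 313, 199 and 348 CPM with treatment (0.34 ± 0.26, adjusted p = 0.517).

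Ifitm6, the neighbour of Ifitm3 in the cluster, rose in splenic PMN-MDSC from 138, 163, 314 and 208 CPM to 1317, 607 and 1841 CPM (2.67 ± 0.43, adjusted p = 0.00795, 6.35-fold). Its treated libraries lay at 607 to 1841 CPM, all above the untreated ones. In tumor PMN-MDSC it was at 5.86, 17.7, 19.9 and 4.32 CPM without and 29.9, 127, 21.6 and 302 CPM with treatment. The groups were separate and the log2 difference, 3.26 ± 0.96, was larger than in the spleen, but the treated libraries ranged widely and the test was not passed (adjusted p = 0.132), whereas DESeq2 and the fit over all 8 MDSC groups called it. Library 4, the highest, was the one with the highest neutrophil markers, whose part was not tested. In M-MDSC the log2 difference was −0.13 ± 0.24, adjusted p = 0.726 in spleen and −1.07 ± 0.64, adjusted p = 0.406 in tumor, with overlapping groups in both.

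Ifitm1 was abundant in splenic PMN-MDSC with and without treatment. It was at 156, 405, 199 and 322 CPM without and 92.7, 245 and 448 CPM with treatment, and the log2 difference was 0.012 ± 0.48 (adjusted p = 0.991). In tumor PMN-MDSC the difference was 0.66 ± 0.51, adjusted p = 0.548, with overlapping groups. In tumor M-MDSC it was at 43.8, 26.4, 31.3 and 18.0 CPM without and 16.7, 7.31 and 12.3 CPM with treatment, where the treated libraries lay below the untreated ones and edgeR's test was not passed (−1.36 ± 0.38, adjusted p = 0.0828), whereas DESeq2 and the fit without a filter on low counts called it lower. Ifitm2 fell by 0.84 on the log2 scale in splenic M-MDSC (SE 0.20, adjusted p = 0.0148), from 60.8, 86.9, 52.1 and 61.3 CPM to 26.2, 43.2, 39.2 and 39.7 CPM, and was not called in the fit over all 8 MDSC groups. Its other differences were 0.24 ± 0.41, adjusted p = 0.755 in splenic PMN-MDSC, 0.31 ± 0.28, adjusted p = 0.615 in tumor PMN-MDSC and −0.69 ± 0.37, adjusted p = 0.353 in tumor M-MDSC.

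Samhd1, the deoxynucleotide hydrolase, did not pass the test in any treatment comparison. In splenic PMN-MDSC it was at 2144, 3862, 2719 and 2636 CPM without and 2467, 4933 and 3190.5 CPM with treatment. In splenic M-MDSC it was at 1609.9, 2075, 1428 and 1544 CPM without and 1684, 2248, 2082 and 1172 CPM with treatment. The untreated and treated libraries overlapped in both, and the log2 differences were 0.35 ± 0.27, adjusted p = 0.445 and 0.075 ± 0.20, adjusted p = 0.827. In tumor PMN-MDSC the difference was 0.15 ± 0.18, adjusted p = 0.711 and in tumor M-MDSC −0.42 ± 0.32, adjusted p = 0.521. Treated tumor M-MDSC ranged over 528 to 1374 CPM, with library 3 lowest.

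Whether a member responded differently in the 2 cell types was tested by an interaction term. In spleen, 3 of 10 members passed, where 10.9% of all tested genes did. The response of PMN-MDSC exceeded that of M-MDSC by a log2 value of 3.09 ± 0.59, adjusted p = 0.00666 for Mx2, 2.08 ± 0.29, adjusted p = 0.00157 for Ifitm3 and 2.86 ± 0.50, adjusted p = 0.00458 for Ifitm6. For Rsad2 the same difference was −1.09 ± 0.49, adjusted p = 0.167, and for Mx1 0.78 ± 0.73, adjusted p = 0.528, so that neither was shown to differ. In tumor 0 of 10 members passed with edgeR, beside 0.0239% of all genes, while 3 members had an unadjusted p under 0.05 and DESeq2 called 0. The response in tumor was compared with that in spleen in the same way. In PMN-MDSC 0 of 10 members differed in response with edgeR (3.5% of all genes), with 2 at an unadjusted p under 0.05 and 0 called by DESeq2. The largest of these differences, tumor minus spleen, was that of Mx2, −2.02 ± 0.68, adjusted p = 0.128, and it was called without treated splenic library 1 (−2.37, adjusted p = 0.0389). In M-MDSC 0 of 10 members differed with edgeR (0.79% of all genes), with 3 at an unadjusted p under 0.05 and 2 called by DESeq2, and Ifitm1 was called without treated tumor library 2 (−2.69, adjusted p = 0.0317).

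A list of 15 other antiviral effectors was read beside the members. Of those tested, 9 of 13 were higher after treatment in splenic PMN-MDSC, 8 of 14 in tumor PMN-MDSC, 12 of 14 in splenic M-MDSC and 5 of 14 in tumor M-MDSC, beside 6.1%, 2.29%, 10.7% and 1.82% of all genes, with median log2 differences of 1.57, 0.99, 1.29 and 1.18. The 3 with the smallest adjusted p in splenic PMN-MDSC were Isg15 (3.63 ± 0.44, adjusted p = 0.00307), Eif2ak2 (1.87 ± 0.23, adjusted p = 0.00327) and Znfx1 (1.59 ± 0.23, adjusted p = 0.00503). In tumor PMN-MDSC they were Ddx60 (2.58 ± 0.31, adjusted p = 0.00149), Mov10 (1.54 ± 0.21, adjusted p = 0.00227) and Isg20 (2.50 ± 0.39, adjusted p = 0.00566). In splenic M-MDSC they were Isg20 (3.54 ± 0.27, adjusted p = 4.51e-05), Isg15 (4.02 ± 0.33, adjusted p = 7.64e-05) and Apobec3 (1.49 ± 0.15, adjusted p = 0.000218). In tumor M-MDSC they were Ddx60 (2.44 ± 0.33, adjusted p = 0.0102), Znfx1 (1.47 ± 0.20, adjusted p = 0.0102) and Mov10 (1.71 ± 0.23, adjusted p = 0.0103). Isg15 encodes a ubiquitin-like modifier, Eif2ak2 the double-stranded RNA-dependent kinase PKR, Isg20 an exonuclease and Ddx60 a helicase. Ch25h, which makes an oxysterol that hinders viral fusion, was too low to be tested in any of the 4 comparisons.

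In the interferon receptor pathway, a list of 11 genes for the receptor, its kinases, transcription factors and feedback, 4, 4, 5 and 1 of the 11 tested were higher in splenic PMN-MDSC, tumor PMN-MDSC, splenic M-MDSC and tumor M-MDSC, beside 6.1%, 2.29%, 10.7% and 1.82% of all genes. Their median log2 differences were 0.87, 0.37, 0.42 and 0.40. The 3 with the smallest adjusted p were Irf7, Usp18 and Stat2 in each of the 4 comparisons. Irf7, which amplifies interferon production, was higher in all 4, by 2.75 ± 0.31, adjusted p = 0.00280 in splenic PMN-MDSC, 3.88 ± 0.26, adjusted p = 9.60e-05 in tumor PMN-MDSC, 2.95 ± 0.24, adjusted p = 6.97e-05 in splenic M-MDSC and 3.01 ± 0.28, adjusted p = 0.00216 in tumor M-MDSC. Usp18, a protease that removes ISG15 and dampens the receptor, was higher in the first 3, by 3.94 ± 0.32, adjusted p = 0.00118, 3.38 ± 0.44, adjusted p = 0.00236 and 3.30 ± 0.25, adjusted p = 4.06e-05, and missed the call in tumor M-MDSC (2.33 ± 0.53, adjusted p = 0.0541). Stat2, a transcription factor of the pathway, was likewise higher in the first 3, by 2.67 ± 0.40, adjusted p = 0.00651, 1.42 ± 0.23, adjusted p = 0.00724 and 1.47 ± 0.23, adjusted p = 0.00218, and was not called in tumor M-MDSC (0.76 ± 0.25, adjusted p = 0.132). The receptor subunits Ifnar1 and Ifnar2 and the kinases Jak1 and Tyk2 were not called in any treatment comparison, with log2 differences from −0.37 to 0.62. The other Ifitm genes of the list, Ifitm5, Ifitm7 and Ifitm10, were too low to be tested.

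The second comparison set tumor against spleen within 1 cell type and treatment. In untreated PMN-MDSC 6 of 8 tested members were lower in tumor, beside 29.7% of all genes, and in treated PMN-MDSC 5 of 10, beside 25.4%. Ifitm6 had the largest difference, from 138, 163, 314 and 208 CPM in untreated spleen to 5.86, 17.7, 19.9 and 4.32 CPM in untreated tumor (−3.91 ± 0.46, adjusted p = 6.11e-05) and −3.29 ± 0.85 with treatment (adjusted p = 0.0114), a call that was lost without a filter on low counts. Cmpk2 (−3.27 ± 0.28 untreated, −2.74 ± 0.34 treated), Rsad2 (−2.05 ± 0.24, −2.13 ± 0.47) and Samhd1 (−1.43 ± 0.22, −1.60 ± 0.29) were lower in tumor in both states, with an adjusted p of 0.00555 or less. Ifitm1 (−2.09 ± 0.30, adjusted p = 0.000203) and Ifitm2 (−1.10 ± 0.31, adjusted p = 0.0112) were lower without treatment, and Ifitm3 (−1.31 ± 0.29, adjusted p = 0.00555) with treatment. The neutrophil marker sum was lower in tumor as well, 1389 to 3850.4 CPM against 15515 to 34499 CPM without treatment, and the macrophage sum was higher, 3179 to 3933 against 389 to 1158 CPM without and 3062 to 5366 against 53.4 to 131 CPM with treatment. The epithelial sum (87.6 to 596 against 0 to 2.16 CPM) and the monocyte sum (1605 to 2204 against 667 to 1250.5 CPM) were higher in untreated tumor too. In all, tumor and spleen were apart for 9 of 12 marker lists without and 7 with treatment, and the part of these in the differences was not tested. Mx1 was not called between untreated tumor and spleen (0.68 ± 0.50, adjusted p = 0.261) until untreated splenic library 1 was left out (1.54, adjusted p = 0.00332).

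Without splenic library 1 or tumor library 4 of the treated mice, Mx2, Ifitm1 and Ifitm2 were called lower in tumor as well in treated PMN-MDSC, and Bst2 was called higher without tumor library 3. In M-MDSC the directions were mixed. Here tumor and spleen were apart for 7 of 12 marker lists in both states. Without treatment the macrophage sum was 1590.3 to 2177 CPM in tumor and 224 to 301 CPM in spleen, the neutrophil sum 199 to 465 and 1252 to 2205 CPM, and the epithelial sum 13.7 to 229 and 0.437 to 6.77 CPM. Their part in the calls that follow was not tested. Without treatment 2 of 10 members were higher in tumor, beside 15.7% of all genes, and 3 lower, beside 12.7%. Ifitm1 was at 3.06, 5.51, 2.03 and 2.45 CPM in spleen and 43.8, 26.4, 31.3 and 18.0 CPM in tumor, 9.64-fold higher (3.27 ± 0.35, adjusted p = 2.85e-05), and Rsad2 was higher by 1.26 ± 0.33, adjusted p = 0.0147, a call that was lost without tumor library 1 (adjusted p = 0.0539). The Ifitm1 values in spleen rest on 6 to 14 counts a library. Mx1 (−0.81 ± 0.21, adjusted p = 0.0119), Cmpk2 (−1.21 ± 0.25, adjusted p = 0.00353) and Ifitm6 (−0.77 ± 0.21, adjusted p = 0.0164) were lower in tumor, and the calls of Mx1 and Ifitm6 were lost in the fit over all 8 MDSC groups. Rsad2 and Cmpk2 thus differed in opposite directions between the same 8 libraries, and Cmpk2 was at 27.1, 43.3, 24.4 and 31.8 CPM in spleen and 15.9, 17.8, 10.8 and 10.3 CPM in tumor. With treatment 0 of 10 members were called with edgeR, beside 5.87% of all genes, while 5 had an unadjusted p under 0.05 and DESeq2 called 2.

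The third comparison set PMN-MDSC against M-MDSC within a compartment and treatment. In untreated spleen all 10 members differed, 6 higher in PMN-MDSC, beside 30.9% of all genes, and 4 lower, beside 33.4%. The largest difference was that of Ifitm1, at 156, 405, 199 and 322 CPM in PMN-MDSC and 3.06, 5.51, 2.03 and 2.45 CPM in M-MDSC, 72.6-fold (6.18 ± 0.38, adjusted p = 2.21e-06). Its M-MDSC values rest on 6 to 14 counts a library. Rsad2 (3.25 ± 0.25, adjusted p = 6.17e-06), Ifitm6 (1.79 ± 0.26, adjusted p = 0.000325), Cmpk2 (1.73 ± 0.23, adjusted p = 0.000162) and Ifitm2 (1.31 ± 0.31, adjusted p = 0.00483) were also higher in PMN-MDSC. Samhd1 differed least (0.56 ± 0.17, adjusted p = 0.0178), and its call was lost without M-MDSC library 1, 3 or 4 (adjusted p 0.0577 to 0.0819) and under upper-quartile scaling. Lower in PMN-MDSC were Mx1 (−2.73 ± 0.44, adjusted p = 0.000520), Mx2 (−2.72 ± 0.31, adjusted p = 7.26e-05), Bst2 (−1.82 ± 0.29, adjusted p = 0.000535) and Ifitm3 (−0.77 ± 0.19, adjusted p = 0.00605). The members fell into both directions in the untreated spleen, as did all tested genes. The 2 cell types were apart for 6 of 12 marker lists there. Beside the neutrophil and monocyte sums, the macrophage sum was 389 to 1158 CPM in PMN-MDSC and 224 to 301 CPM in M-MDSC, the erythroid sum 61.7 to 157 and 18.1 to 47.6 CPM, the T cell sum 12.9 to 20.3 and 1.18 to 3.50 CPM, and the endothelial sum 29.8 to 73.9 and 19.6 to 28.4 CPM. Their part in these differences was not tested.

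With treatment the order in the spleen changed for some members. Higher in PMN-MDSC were 6 of 10, beside 28.8% of all genes, and lower were 2, beside 32.4%. Ifitm3, lower in PMN-MDSC without treatment, was higher with treatment, at 654, 856 and 985 CPM in PMN-MDSC and 275, 409, 332 and 277 CPM in M-MDSC (1.20 ± 0.22, adjusted p = 0.00178). Ifitm6 reached 23.2-fold (4.53 ± 0.44, adjusted p = 0.000132). Mx2 was no longer called (0.25 ± 0.44, adjusted p = 0.638), while Mx1 (−2.09 ± 0.56, adjusted p = 0.0122) and Bst2 (−1.33 ± 0.28, adjusted p = 0.00380) were lower in PMN-MDSC, Mx1 not without a filter on low counts. Samhd1 missed the call (0.81 ± 0.31, adjusted p = 0.0520) and gained it without PMN-MDSC library 1 (adjusted p = 0.0204). In treated spleen the cell types were apart for 5 of 12 marker lists. The macrophage sum, higher in PMN-MDSC without treatment, was lower with it, 53.4 to 131 CPM in PMN-MDSC and 217 to 349 CPM in M-MDSC. With treatment the endothelial sum (13.1 to 24.4 and 110.3 to 269 CPM) and the dendritic cell sum (0 to 1.79 and 7.06 to 25.1 CPM) were also lower in PMN-MDSC, and the part of these markers was not tested. In untreated tumor 1 of 8 tested members, Ifitm1, was higher (0.90 ± 0.25, adjusted p = 0.0337), beside 7.25% of all genes. Lower were 2, Mx1 (−1.23 ± 0.31, adjusted p = 0.0216) and Ifitm3 (−1.22 ± 0.20, adjusted p = 0.00140), beside 5.73%. The call of Ifitm1 was lost without PMN-MDSC library 2, 3 or 4 or M-MDSC library 2 or 3 (adjusted p 0.0741 to 0.106), that of Mx1 without PMN-MDSC library 3 or M-MDSC library 1 or 2 (adjusted p 0.0548 to 0.0593), and both in the fit over all 8 MDSC groups. Ifitm6 was called without PMN-MDSC library 3 or M-MDSC library 4. In these libraries the macrophage sum was 3179 to 3933 CPM in PMN-MDSC and 1590.3 to 2177 CPM in M-MDSC, and the 2 cell types were apart for 6 of 12 marker lists, whose part was not tested. In treated tumor 0 of 10 were called with edgeR, beside 0.38% of all genes, while 3 had an unadjusted p under 0.05 and DESeq2 called 1.

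**Figure D5:**
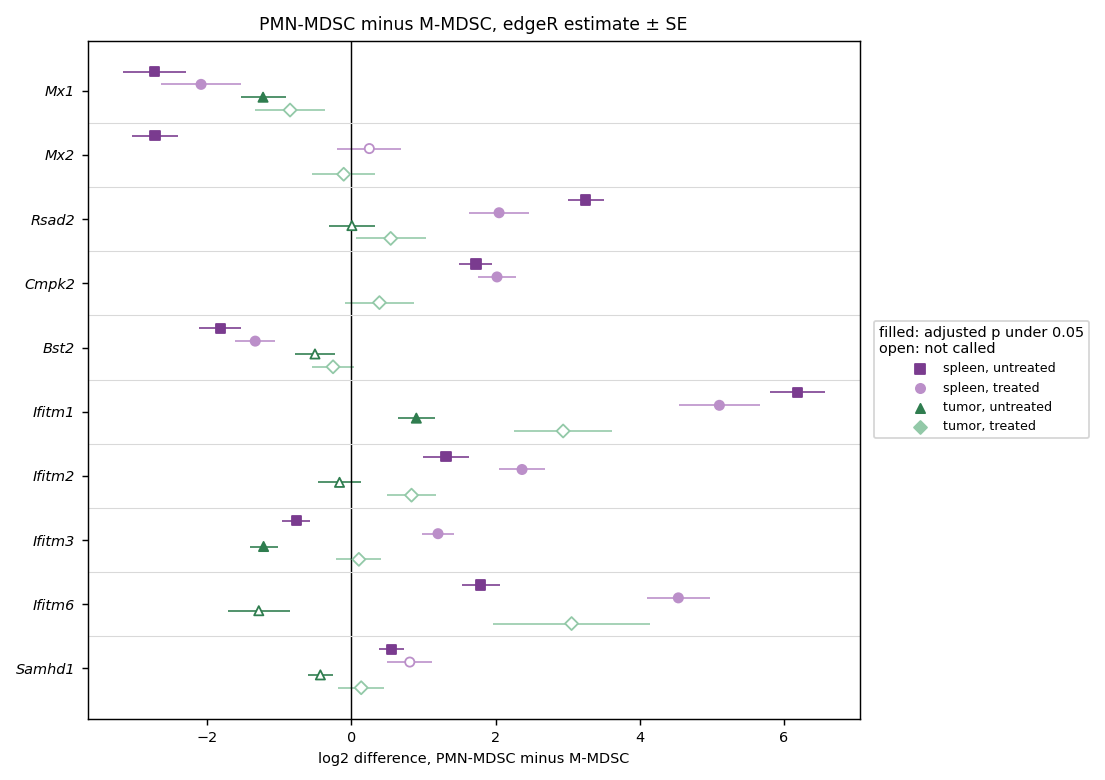
Log2 difference of PMN-MDSC minus M-MDSC for each member (points) with its SE (lines) in spleen and tumor, with and without treatment. Filled points passed an adjusted p of 0.05. The points of spleen spread from −2.73 for Mx1 to 6.18 for Ifitm1, and those of Ifitm3 in spleen lie on both sides of 0.

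Bulk tumor of untreated mice held low levels of most members. Against tumor PMN-MDSC 6 of 8 tested members were lower, beside 33.3% of all genes, and against tumor M-MDSC 8 of 9, beside 31%. The monocyte sum was 55.1 to 111 CPM in bulk tumor and 3774 to 4304 CPM in untreated tumor M-MDSC. The macrophage sum was 642 to 997 and 1590.3 to 2177 CPM, and the epithelial sum 3540.4 to 5705 and 13.7 to 229 CPM. Neutrophil markers held 10.2 to 15.1 CPM in bulk tumor and 1389 to 3850.4 CPM in untreated tumor PMN-MDSC. The part of these markers was not tested. Ifitm3 had the highest mean FPKM of the members in the sorted tumor cells, with the uncertainty of Ifitm2 given above. In bulk tumor Ifitm3 was at 1.80, 4.09, 5.45 and 5.86 CPM, and Samhd1 at 85.1, 243, 132 and 153 CPM. The log2 difference of bulk tumor minus tumor M-MDSC was −5.78 ± 0.35, adjusted p = 8.99e-08 for Ifitm3 and −3.18 ± 0.31, adjusted p = 3.15e-06 for Samhd1. Ifitm6 had 1 count in 1 of the 4 bulk tumor libraries and 0 in the others, so no fold is given. Mx1 was at 8.10, 77.2, 10.7 and 21.8 CPM, with library 2 above the other 3 and above each untreated tumor M-MDSC library, and it was not called against M-MDSC (−1.03 ± 0.63, adjusted p = 0.170) except without that library (−2.06, adjusted p = 0.000646). Of the members tested against tumor PMN-MDSC, Mx1 and Mx2 were not called. Cmpk2, at 0.386, 0.255, 0.720 and 0.606 CPM in bulk tumor, was too low to be tested in both comparisons, and Ifitm6 in that with PMN-MDSC.

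Ordered by group mean, neighbours in the order of levels mostly overlapped. For Rsad2, Cmpk2, Ifitm3 and Ifitm6, treated splenic PMN-MDSC stood first and clear of the next group, at 2091 ± 1115 CPM (SD, n = 3), 701 ± 230.4 CPM (SD, n = 3), 832 ± 167 CPM (SD, n = 3) and 1255 ± 619.5 CPM (SD, n = 3). For Mx1, treated splenic M-MDSC stood first and clear of the next, at 485 ± 211 CPM (SD, n = 4). For Mx2, Bst2, Ifitm1, Ifitm2 and Samhd1 the libraries of the first 2 groups overlapped. At the other end, untreated splenic PMN-MDSC had the lowest means of Mx1, Mx2 and Bst2. For Bst2 (5.57 ± 3.01 CPM (SD, n = 4)) its highest library and the lowest of the next group, untreated tumor PMN-MDSC, both stood at 10.1 CPM. Untreated tumor PMN-MDSC had the lowest means of Cmpk2, Ifitm3, Ifitm6 and Samhd1, in each case overlapping the next group. Splenic M-MDSC had the lowest Rsad2 and Ifitm1, without treatment, and the lowest Ifitm2, with treatment.

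For each member, the 3 genes with the most similar levels were taken by Pearson's r of log2(CPM + 1) over the 30 MDSC libraries, among 8535 genes that averaged 25 counts or more. The libraries share 8 groups, so r describes these groups as much as single libraries. The values for Cmpk2 were the closest, Oas3 (r = 0.983), Rtp4 (r = 0.964) and Trim34a (r = 0.962). Rsad2 was followed by Isg20 (r = 0.955), Oasl1 (r = 0.948) and Slfn4 (r = 0.940), and Bst2 by Lgals3bp (r = 0.957), Cfb (r = 0.955) and Ifi44 (r = 0.945). For Mx2 they were Parp12 (r = 0.947), Phf11b (r = 0.941) and Ly6e (r = 0.940), and for Mx1 Slc25a22 (r = 0.928), Setdb2 (r = 0.921) and Gm5431 (r = 0.913). Ifitm3 was nearest to Slfn5 (r = 0.944), Xaf1 (r = 0.937) and Stat2 (r = 0.927). Ifitm1 was nearest to Abtb2 (r = 0.979), Sfxn5 (r = 0.956) and Mxd1 (r = 0.953), Ifitm6 to Celsr3 (r = 0.951), Anxa1 (r = 0.941) and Ckap4 (r = 0.933), Ifitm2 to Gm25395 (r = 0.920), Tnfrsf1a (r = 0.901) and Atxn2l (r = 0.890) and Samhd1 to Fgr (r = 0.960), Coro1a (r = 0.953) and Fmnl1 (r = 0.952). Oas3 and Oasl1 belong to the 2'-5'-oligoadenylate synthetase family, Stat2 to the interferon receptor pathway, and Coro1a encodes an actin-binding protein of leukocytes.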

How the data were processed

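RNA of sorted MDSC and of bulk tumor was sequenced after ribosomal RNA depletion with a stranded total RNA kit. The deposited table holds the authors' fragment counts for every gene, not normalized. Per their methods, reads were mapped to mm10 (GRCm38) with ContextMap and BWA and counted by strand with featureCounts (Subread 1.4.6-p3 per the labels) on a GENCODE annotation. Each column was given the group that its name spells out (cell, organ, treatment).

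Symbols, positions and exon lengths came from GENCODE M21, which held 53274 of the 53379 gene identifiers. Among 48 library pairs of the same group 0 were identical (chi-square per degree of freedom at least 6.19). Tests used edgeR 4.0.16 (R 4.3.3) on the libraries of each comparison, with TMM scaling, robust dispersions and genes averaging at least 25 counts, two-sided and adjusted over all tested genes. SE was the log2 difference over the square root of F. Alternatives were DESeq2 1.42.0, RLE and upper-quartile scaling, no filter, at least 10 counts in every library, no robust dispersions, 1 fit over the 8 MDSC groups, the study's threshold (adjusted p under 0.001 and 2-fold; with edgeR and, added after seeing the data, with DESeq2), CPM scaled to the library total and each library left out. The code was tested on simulated counts. CPM and FPKM were computed from the deposited counts. Motifs were searched in RefSeq promoters of GRCm38.p6. Named are the 10 members, the 3 genes of each list with the smallest adjusted p per treatment comparison, and the 3 genes nearest to each member in level. In addition, list genes chosen by role after their values were seen are named (the receptor subunits, their kinases and genes not tested). The alleles of the tumor line are not reported here. The members and the gene lists were chosen with earlier results of these data known.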

Additional observations from a re-analysis of the deposited data

Results flagged for a closer look

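Of 70 groups of 4 libraries tested (each member in each such group), 7 held 1 library that stood apart by Dixon's criterion. For independent, normally distributed values chance gives about 1 in 20, or 3.5. The members share libraries and CPM need not be normal, so these numbers cannot show an excess over chance. In untreated splenic PMN-MDSC 1 library held Mx1 at 33.2 CPM against 8.07 to 9.36 CPM in the others, and another held Bst2 at 10.1 CPM against 3.83 to 4.33 CPM. In untreated tumor M-MDSC the lowest Mx1 was 32.9 CPM against 59.3 to 64.6 CPM, and the lowest Ifitm6 was 15.4 CPM against 32.8 to 35.5 CPM. In untreated splenic M-MDSC the lowest Rsad2 was 13.4 CPM against 22.6 to 23.6 CPM. In treated tumor PMN-MDSC the highest Rsad2 was 823 CPM against 292 to 322 CPM. In bulk tumor Ifitm6 was at 0.255 CPM, 1 count, in 1 library and at 0 in the other 3, which meets the criterion at any level above 0.

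The response to treatment in spleen differed between PMN-MDSC and M-MDSC for 3 members by the interaction term of edgeR. The response in PMN-MDSC exceeded that in M-MDSC by a log2 value of 3.09 ± 0.59, adjusted p = 0.00666 for Mx2, 2.08 ± 0.29, adjusted p = 0.00157 for Ifitm3 and 2.86 ± 0.50, adjusted p = 0.00458 for Ifitm6.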

How the results depend on the processing

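No called value changed sign under the alternatives run. Of 322 counts of called members under an alternative 280 stayed within 1.5 times the reported count. In treatment comparisons the study's threshold, applied to edgeR, left 0 members in splenic PMN-MDSC (7 reported), 1 in tumor PMN-MDSC (6), 4 in splenic M-MDSC (7) and 0 in tumor M-MDSC (3), where DESeq2 and no filter each called 6. With edgeR that threshold left 3, 20, 218 and 1 of all genes. With DESeq2, the study's tool, an alternative chosen after seeing the data, it left 517, 193, 610 and 215 genes and 7, 6, 5 and 3 members, and in other comparisons it left 2 members in untreated M-MDSC of tumor against spleen and 1 in untreated and 1 in treated tumor of PMN-MDSC against M-MDSC. Applied to edgeR it also left 1 in treated PMN-MDSC and 1 in untreated M-MDSC of tumor against spleen, 4 in treated spleen and 0 in untreated tumor of PMN-MDSC against M-MDSC, and 0 in the interaction with cell type in spleen. In treated M-MDSC of tumor against spleen, where 0 were reported, DESeq2 called 2, no filter 4 and the fit over 8 groups 3. That fit called 9 in treated PMN-MDSC and 3 in untreated M-MDSC of tumor against spleen, and 1 in untreated and 2 in treated tumor of PMN-MDSC against M-MDSC, where no filter gave 5 and 1 and DESeq2 1 in treated tumor. At least 10 counts in every library, which tests fewer genes, gave 3 in untreated M-MDSC of tumor against spleen and 5 for bulk tumor against M-MDSC. For interactions, no filter gave 1 and 2 with compartment in PMN-MDSC and M-MDSC, and 5 and 1 with cell type in spleen and tumor, and DESeq2 gave 2 with compartment in M-MDSC. The cause of these changes was not tested, except that fewer genes pass a stricter filter. Leaving out 1 library gave 1 to 5 members for treatment in tumor M-MDSC (treated library 3 left out gave the highest), 5 to 8 for tumor against spleen in treated PMN-MDSC, 1 to 4 for PMN-MDSC against M-MDSC in untreated tumor and 0 to 1 for each interaction with compartment.

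Upper-quartile scaling moved the median of all genes by over 0.1 in 9 of 18 comparisons (log2, at most 0.33) and RLE in 0. The share of higher calls moved from 52.5% to 35.6% (treatment, splenic PMN-MDSC), 52.6% to 64.4% (tumor against spleen, treated PMN-MDSC), 55.2% to 39.3% (untreated M-MDSC), 48.1% to 35.5% and 47.0% to 34.2% (PMN-MDSC against M-MDSC, untreated and treated spleen), 52.0% to 62.3% (bulk tumor against PMN-MDSC) and 40.6% to 21.6% (interaction with cell type, spleen). Of the members called, Samhd1 between cell types in untreated spleen lost its call under it (0.32). Scaled to the library total, mean CPM moved by over 1 SD in 7 of 90 cases, 6 of them in untreated splenic M-MDSC. No paired analysis was possible because the deposited columns carry no mouse number. The groups of the columns run in the same order as those of the labelled samples. Whether this order also gives the mouse of each column was not tested. Differences between libraries of the same mouse are therefore not covered by the tests given here. Levels near 1 count, as those of Ifitm6 in bulk tumor, are limited by depth.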
